A study of Saccharomyces cerevisiae with 12 samples.

Results

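The transcriptome of yeast lacking SCD6 was compared with that of wild type yeast while both were under sodium azide. All 6352 genes of the authors' deposited comparison of these groups were taken, which are all of the 6352 genes of each comparison in the series. Budding yeast were of the strain BY4741, a haploid laboratory strain of mating type a, and the deletion strains (Δscd6, and Δsbp1 in the rest of the series) carry their deletion in that background. The groups compared were Δscd6 cells in azide and wild type cells in azide, 2 libraries each of the 12 in the series. Cells were grown in rich glucose medium (YEPD) to an optical density of 0.4 to 0.5 and held in 0.5% sodium azide for 30 minutes, so the treatment is common to both sides. Δscd6 and wild type cells without azide, 2 libraries each, serve below to show how the strain difference stood without azide, and Δsbp1 cells, 2 libraries with azide and 2 without, as libraries that enter no side of the comparison. The labels name no clone, no deletion cassette and no culture, so replicates may be technical and a p-value speaks only of the scatter among these libraries.

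Scd6 is an RNA-binding protein with an Lsm domain at its start and RGG repeats near its end. It binds the initiation factor eIF4G, represses translation, takes part in decapping and gathers in P bodies, the cytoplasmic granules that hold decapping and decay factors. Azide blocks cytochrome c oxidase and ATP synthesis and brings on such granules within minutes, together with arrest of translation and growth. The question of the comparison is which messages of azide-treated cells stand at another level when Scd6 is missing. Measurements of total RNA give steady levels and cannot separate synthesis from decay.

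Fold changes, p-values and Benjamini-Hochberg adjusted p-values are those of the authors' deposited table, with Δscd6 over wild type, and a gene was called at an adjusted p under 0.05. The table gives no value per library. Group means in normalised counts are reconstructions from the deposited folds of all comparisons and the mean count over the 12 libraries, and an error given after ± is the standard error that a log2 fold change and its p imply, with n = 2 libraries a side. Depth per library is unknown, and so is any interval that needs it. The mean normalised count of a gene ran from 5.55 to 371264 with a median of 589, and 19 of the called genes, 7 higher and 12 lower, had a mean under 100. Of the strain checks, the 7 mating type a genes held mean counts of 257 (ASG7) to 5508 (STE2). Among alpha genes STE3, the receptor of alpha cells, had 62.1. SAG1, the alpha agglutinin, had 484, which is above ASG7.

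Of 6352 genes 274 were called in the authors' deposited table (4.31%), of which 129 were higher in Δscd6 (2.03% of all) and 145 lower (2.28% of all). Counts of called members in the lists below are to be read against these shares. The median log2 fold change over all genes was 0.03, and the 10th and 90th percentiles were -0.47 and 0.46. A further measure of breadth is that 949 genes had an unadjusted p under 0.05. The smallest called change was 0.58 among the higher genes and -0.62 among the lower ones, with medians of 0.93 and -1.03 over those called. Changes over 1 in size on the log2 scale were held by 214 genes, of which 127 were called. The median implied standard error of a gene was 0.24. With the median gene set to 0 the calls were 117 higher and 163 lower, and 262 of the 274 calls were made again in the same direction.

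**Figure D1:**
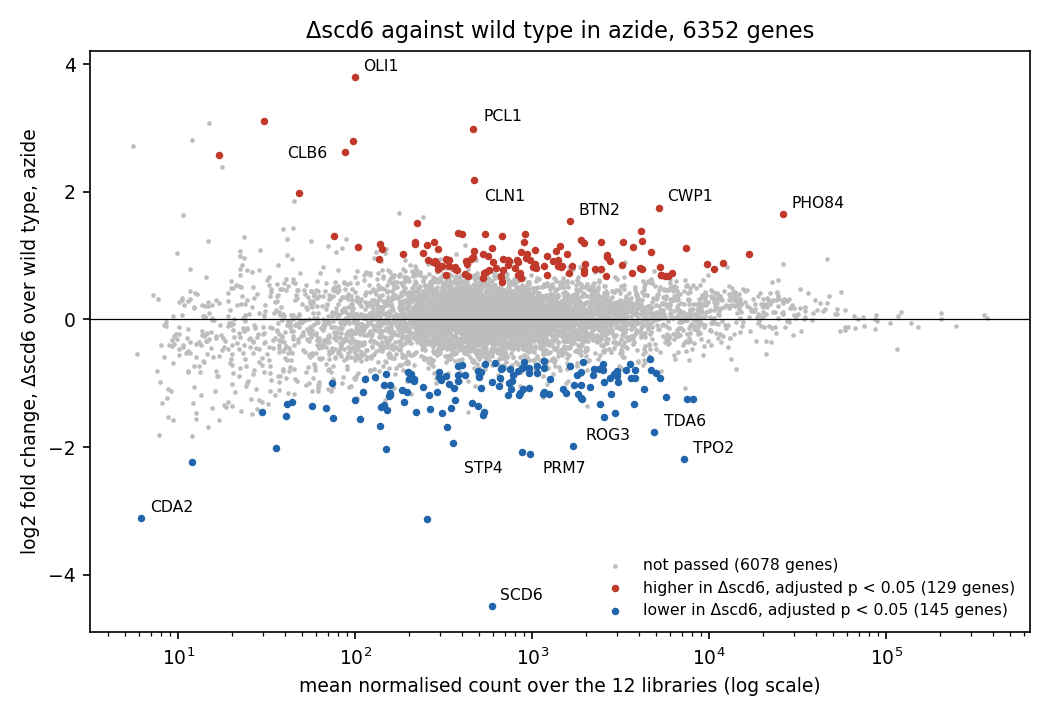
Log2 fold change of Δscd6 over wild type in azide against the mean normalised count over the 12 libraries (log scale), 1 point per gene. Red points are the 129 called higher genes, blue points the 145 called lower genes and grey points the other 6078. SCD6 lies lowest of all genes, and PCL1 stands highest among genes with a mean over 100.

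The deleted gene was low in its own strain. SCD6, on chromosome XVI at 792687 to 793736 of the R64 annotation, had a reconstructed mean of 35.9 normalised counts in Δscd6 and 807 in wild type. Its log2 fold change was -4.49 ± 0.31 in the authors' deposited table (adjusted p = 2.6e-42), and the mean in Δscd6 was 4.45% of that in wild type. Without azide the means were 13.6 in Δscd6 and 1054 in wild type, so a small count remained in the deletion strain in either condition. The authors' deposited table gave ANT1 and NAT3, the annotated genes on either side, log2 fold changes of -0.39 (adjusted p = 0.38) and -0.23 (adjusted p = 0.71), neither past the test.

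Cell cycle genes held the 2 largest rises among genes with a mean count of at least 100. G1 cyclins partner the kinases Cdc28 and Pho85 to start the cycle, and their genes are switched on by SBF, a factor known to bind the SCB element, while the related factor MBF binds the MCB element in genes of DNA synthesis. Heat shock factor Hsf1 binds repeats of GAA and TTC. The stretches below are shown because they hold such letters upstream of genes that were higher in Δscd6: capitals mark SCB (CGCGAAA) or MCB (ACGCGT) on either strand in the first 4, and GAANNTTC or TTCNNGAA in the last 2. They were read from the R64 genome of RefSeq, 5′ to 3′ on the strand of the gene, and no annotated gene overlaps any of them.
PCL1 (chrXIV:87574-87673, plus strand): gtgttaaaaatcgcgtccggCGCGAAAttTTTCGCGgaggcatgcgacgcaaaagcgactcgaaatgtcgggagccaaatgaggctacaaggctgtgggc
CLB6 (chrVII:706825-706924, minus strand): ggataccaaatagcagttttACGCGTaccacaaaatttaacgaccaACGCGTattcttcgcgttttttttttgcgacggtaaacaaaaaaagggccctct
POL30 (chrII:425888-425987, minus strand): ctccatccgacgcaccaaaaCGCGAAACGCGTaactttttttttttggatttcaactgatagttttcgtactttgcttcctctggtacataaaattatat
POL1 (chrXIV:429859-429958, plus strand): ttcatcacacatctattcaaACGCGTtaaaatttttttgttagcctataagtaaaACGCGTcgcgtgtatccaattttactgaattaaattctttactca
BTN2 (chrVII:772090-772189, plus strand): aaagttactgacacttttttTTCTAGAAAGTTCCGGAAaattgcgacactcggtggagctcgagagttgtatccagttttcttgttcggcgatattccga
SSA4 (chrV:364316-364415, plus strand): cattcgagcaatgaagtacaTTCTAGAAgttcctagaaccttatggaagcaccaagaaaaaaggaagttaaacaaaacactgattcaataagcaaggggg
Upstream of PCL1 the SCB letters began 303 and 294 bases before the start codon, the second on the opposite strand. In POL30 an SCB and an MCB shared a base and began 201 and 195 bases before it, and in CLB6 the MCB letters began at 403 and 377 bases. Over the 600 bases before the start codon, SCB or MCB letters were found in 24 of 114 called higher genes with such a window (21.1%) and in 10 of 131 called lower genes (7.63%), against 711 of all 5754 genes (12.4%). MCB letters were in 14.9% of the called higher genes, 4.58% of the called lower genes and 6.48% of all. Neither SCB nor MCB letters were in the windows of CLN1, CLB2, CLB1, CDC5 and FAR1, which were also called higher. Among 15 genes for G1 cyclins and SBF or MBF regulation 5 held SCB letters (33.3%), against 6.57% of all genes. MCB letters were in 1 of those 15 (6.67%), close to the share of all genes. Either order of the heat shock letters was in 52.6% of the called higher genes, 44.3% of the called lower genes and 41.5% of all. AGGGG, the letters of the stress response element bound by Msn2 and Msn4, were in 41.2% of the called higher genes, 50.4% of the called lower genes and 40.1% of all. These shares describe letters in a window, on both strands.

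PCL1, a cyclin of the kinase Pho85 that acts at the start of the cycle, averaged 357 normalised counts in Δscd6 and 45.1 in wild type. Its log2 fold change of 2.98 ± 0.29 had an adjusted p of 6.5e-21 in the authors' deposited table. CLN1, a G1 cyclin of Cdc28, averaged 483 in Δscd6 and 106 in wild type, with 2.19 ± 0.25 on the log2 scale in the authors' deposited table (adjusted p = 6.6e-15). Both messages were thus more than 4 times as abundant in Δscd6, while their levels without azide were close in the strains: PCL1 then averaged 935 in Δscd6 and 681 in wild type, and CLN1 759 in Δscd6 and 678 in wild type. Of 15 genes for G1 cyclins and SBF or MBF regulation 4 passed the test (26.7%), all of them higher, against 2.03% of all genes. The list median was 0.35. The other 2 were HO, the mating type endonuclease under SBF, at 1.07 (adjusted p = 6.1e-04), and FAR1, an inhibitor of G1 cyclin kinase, at 0.93 (adjusted p = 0.0023), both by the authors' deposited table. CLN2, the close relative of CLN1, did not pass at 0.34 (adjusted p = 0.63), nor did SWI4, the DNA-binding part of SBF, at 0.58 (adjusted p = 0.19), in the authors' deposited table.

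Of 20 genes for B-type cyclins and mitosis 4 were higher (20%, against 2.03% of all genes) and the list median was 0.33. CLB6, an S phase cyclin with a mean count of only 87.4, averaged 96.3 in Δscd6 and 15.6 in wild type, a log2 fold change of 2.62 ± 0.39 in the authors' deposited table (adjusted p = 9.0e-09). CLB2, the main mitotic cyclin, averaged 295 in Δscd6 and 117 in wild type, with 1.33 ± 0.25 on the log2 scale in the authors' deposited table (adjusted p = 2.8e-05). CDC5, the polo kinase of mitotic exit, and CLB1, the partner cyclin of CLB2, were higher by 0.81 (adjusted p = 0.003) and 0.73 (adjusted p = 0.013) in the authors' deposited table. CLB5, the sister of CLB6, stood at 0.35 in the authors' deposited table and did not pass (adjusted p = 0.45).

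Of 25 genes for DNA replication and ribonucleotide reductase 4 were higher (16%, against 2.03% of all genes), with a list median of 0.22. RNR1, the large subunit of ribonucleotide reductase, averaged 1482 in Δscd6 and 677 in wild type, at 1.13 on the log2 scale (adjusted p = 1.5e-04) in the authors' deposited table. POL30, the sliding clamp PCNA, averaged 841 in Δscd6 and 397 in wild type, at 1.08 (adjusted p = 1.6e-04) in the authors' deposited table. CDC6, which loads the MCM helicase, and POL1, the catalytic subunit of polymerase alpha, were higher by 1.04 and 0.78 in the authors' deposited table (adjusted p = 0.0086 and 0.0079). MCB letters were in the windows of 13 of these 25 genes (52%), against the 6.48% of all genes given above. Among 8 core histone genes 8 lay above 0, with a median of 0.44, and HHF2, a histone H4 gene, passed at 0.73 in the authors' deposited table (adjusted p = 0.044). Some called genes with cycle roles are on no list and were picked after their values were seen, in either direction. In the authors' deposited table MCD1, the cleaved subunit of cohesin, stood at 1.11, PDS5 and SMC3, of the same complex, at 0.91 and 0.84, the bud neck kinases GIN4, HSL1 and KCC4 at 0.94, 0.89 and 0.82, and MYO1, the myosin of the contractile ring, at 0.85, all higher. CIP1, an inhibitor of G1 cyclin kinase, was lower at -1.32 in the authors' deposited table (adjusted p = 3.8e-04), with means of 2791 in Δscd6 and 6963 in wild type. In bulk RNA a larger share of cells in a phase and more RNA per cell cannot be told apart.

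Some protein folding genes were higher, and most members of their lists did not pass. Over all genes 2.03% were higher. The share was 15.8% in the Hsp70 list, 14.3% in the Hsp90 list, 27.3% among mitochondrial chaperones and 12.5% in the endoplasmic reticulum list. BTN2, which gathers misfolded proteins into deposits, averaged 5180.2 in Δscd6 and 1785 in wild type, a log2 fold change of 1.54 ± 0.29 in the authors' deposited table (adjusted p = 2.4e-05). Without azide its means ran the other way, 465 in Δscd6 and 741 in wild type, a difference that did not pass the test. Of 19 Hsp70 chaperones and co-chaperones 3 were higher: by the authors' deposited table the J protein APJ1 at 1.06 (adjusted p = 2.9e-04), the stress-induced Hsp70 SSA4 at 0.98 (adjusted p = 0.0015) and the nucleotide exchange factor FES1 at 0.91 (adjusted p = 0.0051). SSA4 averaged 5266 in Δscd6 and 2666 in wild type. Either order of the heat shock letters was in the windows of 12 of the 19 genes of that list (63.2%) and of 17 of the 25 replication genes (68%), against the 41.5% of all genes given above. Of 14 Hsp90 genes and co-chaperones 2 were higher, with a list median of 0.40: STI1, which joins Hsp70 to Hsp90, at 0.69, and the peptidyl-prolyl isomerase CPR6 at 0.68, in the authors' deposited table (adjusted p = 0.04 and 0.023). All 11 mitochondrial chaperones analysed lay above 0, with a median of 0.42, and 3 passed. In the authors' deposited table the chaperonins HSP10 and HSP60 stood at 1.01 (adjusted p = 6.0e-04) and 0.88 (adjusted p = 0.02), and the disaggregase HSP78 at 0.73 (adjusted p = 0.021). In the endoplasmic reticulum KAR2, its Hsp70, averaged 17185 in Δscd6 and 8451 in wild type, and it stood at 1.02 with ERO1, the disulfide-forming oxidase, at 0.79, in the authors' deposited table (adjusted p = 0.0069 and 0.01). These were 2 of 16 genes of that list, whose median was 0.10. Proteasome genes, 33 in all, ran from -0.08 to 0.47 with a median of 0.24; 0 passed by the authors' adjusted p, and 2 had an unadjusted p under 0.05.

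Most nuclear genes on the lists of mitochondrial ribosomal proteins, cytochrome c oxidase and protein import lay above 0, as did 3444 of all 6352 genes (54.2%). Over all genes 2.03% were called higher. The share was 7.46% of mitochondrial ribosomal protein, 11.5% of oxidase assembly, 10.7% of import and 5% of ATP synthase genes. Of 67 mitochondrial ribosomal protein genes 60 lay above 0 (59 with equal totals), the median was 0.41, and 5 were called, all higher: by the authors' deposited table MRPS8 0.92, MRPL6 0.86, MRPL49 0.80, MRPL50 0.77 and MRPL16 0.68. Each of the 10 nuclear subunits of cytochrome c oxidase, the enzyme that azide blocks, lay above 0, from 0.13 for COX5A to 0.79 for COX12 in the authors' deposited table, with a median of 0.45. None of them passed the authors' adjusted p, while 5 had an unadjusted p under 0.05. Of 26 genes that assemble the enzyme 3 were higher, with a list median of 0.40: COA2 averaged 523 in Δscd6 and 226 in wild type, CMC2 257 and 111, and COX16 216 and 106. In the authors' deposited table their log2 fold changes were 1.21 (adjusted p = 2.5e-04), 1.21 (adjusted p = 0.0011) and 1.03 (adjusted p = 0.0084). Of 28 import genes 3 were higher, TOM7 and TOM22 of the outer membrane translocase at 0.99 and 0.72 and the small chaperone TIM10 at 0.87, in the authors' deposited table (adjusted p = 0.025, 0.041 and 0.018). ATP17, a subunit of ATP synthase, was higher by 0.70 in the authors' deposited table (adjusted p = 0.024), 1 of 20 such genes. Enzymes of the tricarboxylic acid cycle had a median of -0.07 over 24 genes, and 0 passed by the authors' adjusted p, with 2 at an unadjusted p under 0.05, both lower. NADH and succinate dehydrogenase genes had a median of -0.16 over 10 genes, 8 of them below 0, and 0 passed by the authors' adjusted p, with 2 at an unadjusted p under 0.05. Against the same wild type azide libraries, the medians of the authors' deposited values were 0.45 in Δscd6 and 0.79 in Δsbp1 for the nuclear cytochrome c oxidase subunits, and 0.41 in Δscd6 and 0.41 in Δsbp1 for the mitochondrial ribosomal proteins.

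Messages of the mitochondrial genome were few in count and variable. All 10 analysed lay above 0 in azide, from 1.15 (AI4) to 3.79 (OLI1) in the authors' deposited table, with a median of 2.13, and 4 were called. OLI1, subunit 9 of ATP synthase, averaged 200.2 in Δscd6 and 14.4 in wild type, at 3.79 ± 1.04 in the authors' deposited table (adjusted p = 0.0097). AI5_BETA and AI1, reading frames in introns of COX1, were called at 3.11 and 2.58, and SCEI, an intron endonuclease, at 2.79, in the authors' deposited table (adjusted p = 0.041, 0.014 and 0.028). Their mean counts were 30.6, 17.1 and 96.9. Against the same wild type azide libraries Δsbp1 had a median of 2.69 over these genes, so positive values were not particular to Δscd6. Without azide the list median of Δscd6 against wild type had the other sign, -2.02, and 3 members were lower. Standard errors of 1.04, 0.99 and 0.73 for OLI1, AI5_BETA and AI1 were several times the median of 0.24 over all genes.

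Most cytosolic ribosomal protein genes lay slightly above 0, from 0.04 to 1.12 in the small subunit and from -0.21 to 0.64 in the large one. All 57 genes of the small subunit had a log2 fold change above 0 (56 with equal totals of the groups), with a median of 0.29, and 76 of 81 of the large subunit, with a median of 0.25. Only RPS28B, a small subunit protein whose message is known as a target of the decapping enhancer Edc3, passed the test. It averaged 7488 in Δscd6 and 3450.1 in wild type, at 1.12 ± 0.29 in the authors' deposited table (adjusted p = 0.0056). YLR264C-A, the short reading frame next in name to RPS28B (YLR264W), averaged 4766 in Δscd6 and 1832 in wild type, at 1.38 in the authors' deposited table (adjusted p = 0.0064). Reads of such neighbours may be shared. EDC3 itself stood at -0.29 in the authors' deposited table (adjusted p = 0.57). Without azide the medians of the ribosomal lists were 0.29 and 0.32, and none of their genes passed then. Equal totals take 0.28 off the untreated values but only 0.04 off the azide values. The untreated medians are thus about the size of that shift, and likeness of the medians between conditions depends on the scaling.

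Of 61 genes of the small subunit processome and 40S assembly 4 were higher (6.56%), and of 67 genes of 60S assembly 4 (5.97%). Over all genes 2.03% were higher. The list medians were 0.05 and 0.17, and with equal totals 33 of the 61 and 45 of the 67 lay above 0. In the authors' deposited table SPB1, a methyltransferase of the 60S subunit, stood at 1.31 (adjusted p = 2.4e-05), with means of 415 in Δscd6 and 168 in wild type. SNU13, shared by spliceosome and snoRNPs, stood at 1.21 (adjusted p = 2.3e-05), RRP12 at 0.96, DBP10 at 0.94, RRP5 at 0.84, ARX1 at 0.84, RLP24 at 0.82 and the nucleolar RGG protein NSR1 at 0.81, all by the authors' deposited table. POP8, a protein of RNase P and RNase MRP, averaged 157 in Δscd6 and 55.2 in wild type, at 1.51 ± 0.34 in the authors' deposited table (adjusted p = 7.2e-04).

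**Figure D2:**
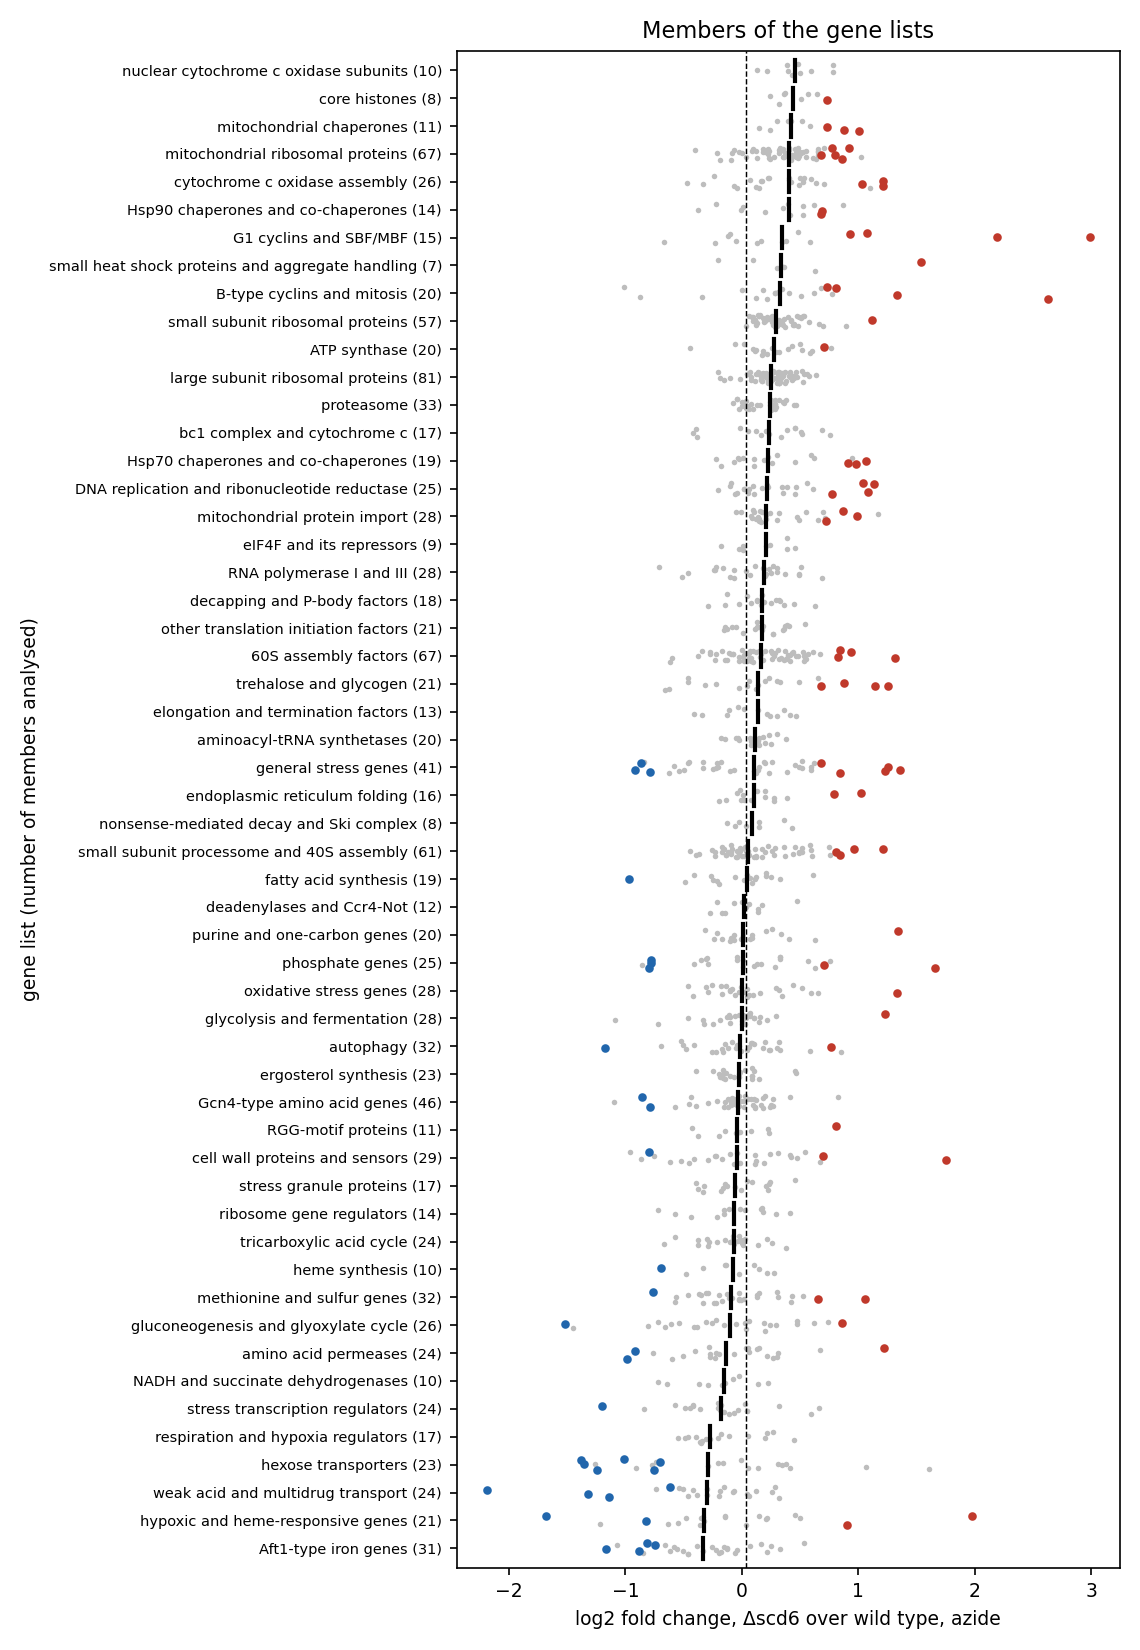
Members of the gene lists by log2 fold change of Δscd6 over wild type in azide, with the number of members analysed in brackets. Red and blue points are members called higher and lower, grey points are the others, black bars are list medians and the dashed line is the median of all genes, 0.03. The medians of cytochrome c oxidase, mitochondrial ribosomal protein, chaperone and cell cycle genes sit right of that line, and those of iron, drug transport, hexose, tricarboxylic acid cycle and dehydrogenase genes left of it; the list of mitochondrially encoded genes, at a median of 2.13, is not drawn.

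Reserve carbohydrate genes were higher where they passed. Of all genes 4.31% were called, against 19% of the trehalose and glycogen list and 19.5% of the general stress list. The called shares of oxidative stress genes (3.57%) and stress regulators (4.17%) were near that of all genes. Of 21 genes for trehalose and glycogen 4 were called: by the authors' deposited table GPH1, glycogen phosphorylase, at 1.25 (adjusted p = 5.0e-06), GSY1, a glycogen synthase, at 1.15 (adjusted p = 2.0e-04), GLC3, the branching enzyme, at 0.87 (adjusted p = 0.0047) and PGM2, phosphoglucomutase, at 0.68 (adjusted p = 0.038). GPH1 averaged 3245 in Δscd6 and 1364 in wild type, where the means without azide were 207 in Δscd6 and 218 in wild type. The general stress genes moved in both directions: of 41 genes 5 were higher and 3 lower. Higher, by the authors' deposited table, were TMA10, which associates with ribosomes, at 1.36 (adjusted p = 0.0046), HXK1, a hexokinase, at 1.23 (adjusted p = 9.0e-05), CTT1, cytosolic catalase, at 0.84 (adjusted p = 0.0031), and GPH1 and PGM2 as above. Lower, by the authors' deposited table, were the cell wall proteins YGP1 and SPI1 at -0.92 (adjusted p = 0.024) and -0.79 (adjusted p = 0.044) and FMP48 at -0.87 (adjusted p = 0.0015). TSA2, a peroxiredoxin, was the 1 called gene of 28 oxidative stress genes, at 1.33 in the authors' deposited table (adjusted p = 4.8e-06), with means of 842 in Δscd6 and 335 in wild type. YAP6, a basic leucine zipper factor, was the 1 called gene of 24 stress regulators, at -1.20 in the authors' deposited table (adjusted p = 0.0026).

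A surface transporter held the largest fall after SCD6 among annotated genes with a mean count of at least 100. TPO2, a plasma membrane exporter of polyamines, averaged 4783 in Δscd6 and 21825 in wild type, a log2 fold change of -2.19 ± 0.29 in the authors' deposited table (adjusted p = 2.8e-11). Its close relative TPO3 averaged 3046 in Δscd6 and 7632 in wild type, at -1.32 in the authors' deposited table (adjusted p = 2.3e-05); no source used here says how reads matching both were counted. AQR1, an exporter of short acids, and TPO4, another polyamine exporter, were lower at -1.15 (adjusted p = 0.0056) and -0.62 (adjusted p = 0.05) in the authors' deposited table. These were 4 of 24 weak acid and multidrug transport genes (16.7%, against 2.28% of all genes lower). The list median was -0.30, with 18 members below 0, while 54.2% of all genes lay above 0. Of 24 amino acid permeases and related genes PTR2, the peptide transporter, was higher at 1.22 (adjusted p = 1.3e-06), and MEP2, an ammonium transporter, and BAP3, a branched-chain permease, were lower at -0.99 and -0.92, in the authors' deposited table (adjusted p = 0.02 and 0.0011). VCX1, the vacuolar calcium exchanger, was lower at -1.22 in the authors' deposited table (adjusted p = 9.0e-05); it was picked after its values were seen.

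Genes of glucose sensing and uptake were lower where they passed. Of 23 hexose transporter and sensing genes 6 were called (26.1%), all lower, against 2.28% of all genes lower. The list median was -0.29. The co-repressor MTH1 averaged 334 in Δscd6 and 871 in wild type, at -1.38 in the authors' deposited table (adjusted p = 2.4e-06). MIG2, a glucose repressor, averaged 285 in Δscd6 and 728 in wild type, at -1.36 in the authors' deposited table (adjusted p = 5.0e-06), and its relative MIG3 stood at -1.01 (adjusted p = 0.0026). HXT1, the low-affinity carrier, averaged 6566 in Δscd6 and 15562 in wild type, at -1.25 in the authors' deposited table (adjusted p = 0.0037). The glucose sensor RGT2 and the carrier HXT5 stood at -0.76 and -0.71 in the authors' deposited table (adjusted p = 0.027 and 0.043). HXT6 and HXT7, whose sequences are nearly identical so that their counts may be mixed, had positive values of 1.06 and 1.60 that did not pass in the authors' deposited table (adjusted p = 0.066 and 0.11). ROG3, an arrestin-related adaptor of the ubiquitin ligase Rsp5, averaged 1135 in Δscd6 and 4501 in wild type, at -1.99 ± 0.30 in the authors' deposited table (adjusted p = 2.7e-08). TOS3, one of the kinases that activate Snf1, was lower at -1.50 in the authors' deposited table (adjusted p = 1.4e-06), with means of 372 in Δscd6 and 1055 in wild type.

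Of 31 Aft1-type iron genes 4 were lower (12.9%, against 2.28% of all genes). The list median was -0.33 and 25 lay below 0, while 54.2% of all genes lay above 0. FIT2, a cell wall mannoprotein that holds siderophores, averaged 1877 in Δscd6 and 4220.4 in wild type, at -1.17 in the authors' deposited table (adjusted p = 0.0032). The ferric reductase FRE4, the copper pump CCC2 and TIS11, which speeds decay of messages of iron-using proteins, stood at -0.88, -0.74 and -0.82 in the authors' deposited table (adjusted p = 0.0016, 0.028 and 0.035). Members of the phosphate list were split, 2 higher and 3 lower of 25 (20%, against 4.31% of all genes called). The kinetochore protein CTF19 was among the lower. PHO84, the high-affinity phosphate carrier, averaged 8303 in Δscd6 and 2640.2 in wild type, at 1.65 ± 0.33 in the authors' deposited table (adjusted p = 1.1e-04), and VTC3, of the polyphosphate polymerase, stood at 0.70 (adjusted p = 0.024). PHO5, the secreted acid phosphatase, and PHM8 were lower at -0.80 and -0.78 in the authors' deposited table (adjusted p = 0.0065 and 0.019). The third lower gene of the list, the kinetochore protein CTF19, stood at -0.78 in the authors' deposited table (adjusted p = 0.0047).

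Cell wall and hypoxic genes also moved both ways. CWP1, a wall mannoprotein, averaged 4726 in Δscd6 and 1402 in wild type, at 1.75 ± 0.25 in the authors' deposited table (adjusted p = 2.8e-09). DAN1, a mannoprotein of anaerobic cells with a mean count of 48.2, was higher at 1.98, as was CYB5, cytochrome b5, at 0.90, in the authors' deposited table (adjusted p = 0.0044 and 0.001). TIR4 and DAN4, mannoproteins of the same kind, were lower at -1.68 and -0.82 in the authors' deposited table (adjusted p = 1.6e-05 and 0.032). TIR4 averaged 184 in Δscd6 and 589.9 in wild type. IMD2, inosine monophosphate dehydrogenase of guanine synthesis, averaged 1229 in Δscd6 and 487 in wild type, at 1.34 in the authors' deposited table (adjusted p = 9.9e-07).

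The other large falls were of genes with varied or unknown roles. PRM7 averaged 850.2 in Δscd6 and 3670.2 in wild type, at -2.11 ± 0.40, and BSC1, close by in name (YDL037C beside YDL039C), 363 in Δscd6 and 1381 in wild type, at -1.93 ± 0.49, in the authors' deposited table (adjusted p = 2.4e-05 and 0.0042). STP4, a zinc finger protein, averaged 703 in Δscd6 and 2982 in wild type, at -2.08 ± 0.42 in the authors' deposited table (adjusted p = 9.0e-05). Its relative STP3 averaged 6599 in Δscd6 and 15575 in wild type, at -1.24 in the authors' deposited table (adjusted p = 4.4e-04). TDA6 stood at -1.76, RRT5 at -1.68, YOL085C at -1.56, UGA2, succinate semialdehyde dehydrogenase, at -1.52, the zinc finger factor COM2 at -1.47, BAG7, a GTPase activator of Rho1, at -1.46 and PET18 at -1.45, by the authors' deposited table. Their adjusted p-values ran from 1.3e-06 for UGA2 to 0.001 for PET18 in the authors' deposited table. Descriptions of unknown function were carried by 30 of the 145 lower genes, 10 of the 129 higher genes and 824 of all 6352. Called reading frames with neither a description nor a reference entry, 25 in all with those lacking only a description, include names adjacent to called genes. By the authors' deposited table YGR139W, next to TPO2 (YGR138C), stood at -2.03, YBR089W, next to POL30 (YBR088C), at 1.03, and YPR160C-A, next to GPH1 (YPR160W), at 1.16; reads of such neighbours may be shared.

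Messages for the decapping, P-body and initiation factors that Scd6 works with did not pass the test. Of 18 decapping and P-body genes, from -0.29 for EDC3 to 0.62 for LSM2 in the authors' deposited table, 0 passed the authors' adjusted p and 1 had an unadjusted p under 0.05, with a median of 0.17. DHH1, the helicase of translational repression, stood at 0.17, the decapping enzyme DCP2 at 0.13, PAT1 at -0.15, the exonuclease XRN1 at 0.18 and SBP1, the other RGG protein of the series, at 0.08, in the authors' deposited table. In the list of eIF4F and its repressors, which holds the partner of Scd6, TIF4631 (eIF4G1) stood at 0.20 and TIF4632 (eIF4G2) at 0.46 in the authors' deposited table (adjusted p = 0.71 and 0.27). Of its 9 genes, as of 12 deadenylase, 8 nonsense-mediated decay and Ski, 17 stress granule and 21 other initiation factor genes, 0 passed the authors' adjusted p. At an unadjusted p under 0.05 there were 1 gene of eIF4F, 0 deadenylase genes, 1 of decay and Ski, 1 stress granule gene and 1 other initiation factor. Of 11 RGG-motif genes NSR1 passed, as given above.

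**Figure D3:**
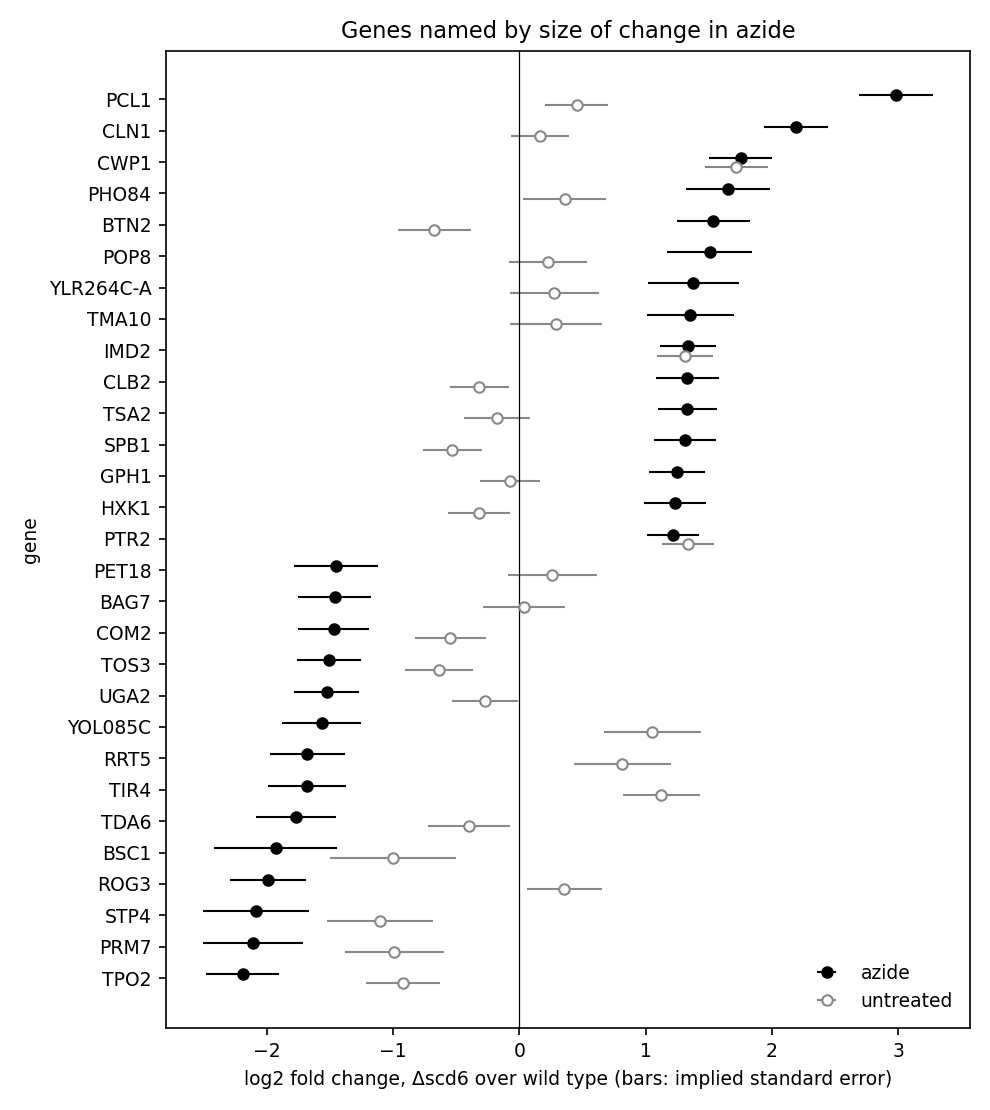
The 15 largest rises and, without SCD6, the 14 largest falls in azide among annotated genes with a mean normalised count of at least 100, by log2 fold change of Δscd6 over wild type. Filled points are azide and open points untreated cells, each with 2 libraries a side, and bars are implied standard errors. CWP1, IMD2 and PTR2 have open and filled points at like values, while TIR4, YOL085C and RRT5 have them on opposite sides of 0.

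Few genes were called both with and without azide. By the authors' deposited table of untreated cells 160 of 6352 genes were called (2.52%), and 20 genes were called in both conditions, which is 7.3% of the azide calls and 12.5% of the untreated calls. These comparisons share no library. Of the 20 genes 10 had the same direction, 7 higher and 3 lower, and 10 the opposite one. Among the 129 genes higher in azide 5.43% were also higher without it, against 1.45% of all genes, and among the 145 lower genes 2.07% were also lower, against 1.07%. In the opposite direction, 2.33% of the higher genes were lower without azide, against 1.07% of all genes. Likewise 4.83% of the lower genes were higher without it, against 1.45%. Over all genes Pearson's r of the 2 sets of log2 fold changes was -0.02 and Spearman's rho -0.09, given as descriptions, since genes are not independent replicates. CWP1 stood at 1.72, IMD2 at 1.31, PTR2 at 1.33, COA2 at 1.02, ICY2, also listed as ATG41 of autophagy, at 1.09 and TSC10, of sphingolipid synthesis, at 0.70 without azide in the authors' deposited table, against 1.75, 1.34, 1.22, 1.21, 0.77 and 0.84 with it. ECM38, a glutathione-degrading enzyme, was lower in both, at -0.76 with azide and -0.92 without it in the authors' deposited table.

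The difference of the strain effect, azide minus untreated, was tested with the implied standard errors, and 284 of 5841 genes differed at an adjusted p under 0.05 (4.86%). The strain effect was higher in azide for 147 genes (2.52%) and lower for 137 (2.35%). This split depends on the scaling: when the summed group means are made equal between strains, which moves every difference by 0.24, it was 640 higher and 100 lower, or 86.5% higher in place of 51.8%. All 147 and 100 of the 137 differed in the same direction under both scalings. Of the 274 azide calls 114 differed from the untreated effect, and 138 did so with equal totals. For PCL1 the difference was 2.53 ± 0.39 (adjusted p = 3.7e-08), for BTN2 2.21 ± 0.41 (adjusted p = 2.2e-05), for CLN1 2.03 ± 0.34 (adjusted p = 1.4e-06), for SPB1 1.84 ± 0.34 (adjusted p = 1.7e-05) and for CLB2 1.65 ± 0.34 (adjusted p = 3.0e-04), by two-sided normal tests with Benjamini-Hochberg adjustment over the 5841 genes. On the lower side it was -2.80 ± 0.43 for TIR4 (adjusted p = 6.0e-08), -2.49 ± 0.49 for RRT5 (adjusted p = 7.5e-05), -2.34 ± 0.42 for ROG3 (adjusted p = 1.0e-05) and -2.25 ± 0.38 for STP3 (adjusted p = 1.4e-06). TPO2 differed at -1.27 ± 0.41 (adjusted p = 0.045), a call lost with equal totals (adjusted p = 0.075). By list, 8 of the 10 mitochondrially encoded genes, 4 of 15 G1 genes and 4 of 20 mitotic genes differed upward, and 6 of 23 hexose genes and 4 of 31 iron genes downward. These 6 hexose genes are not the same set as the 6 called lower in azide. They include HXT6, which stood at 1.06 in azide and did not pass. Without azide HXT6 averaged 436 in Δscd6 and 39.6 in wild type, at 3.46 in the authors' deposited table (adjusted p = 3.6e-17).

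**Figure D4:**
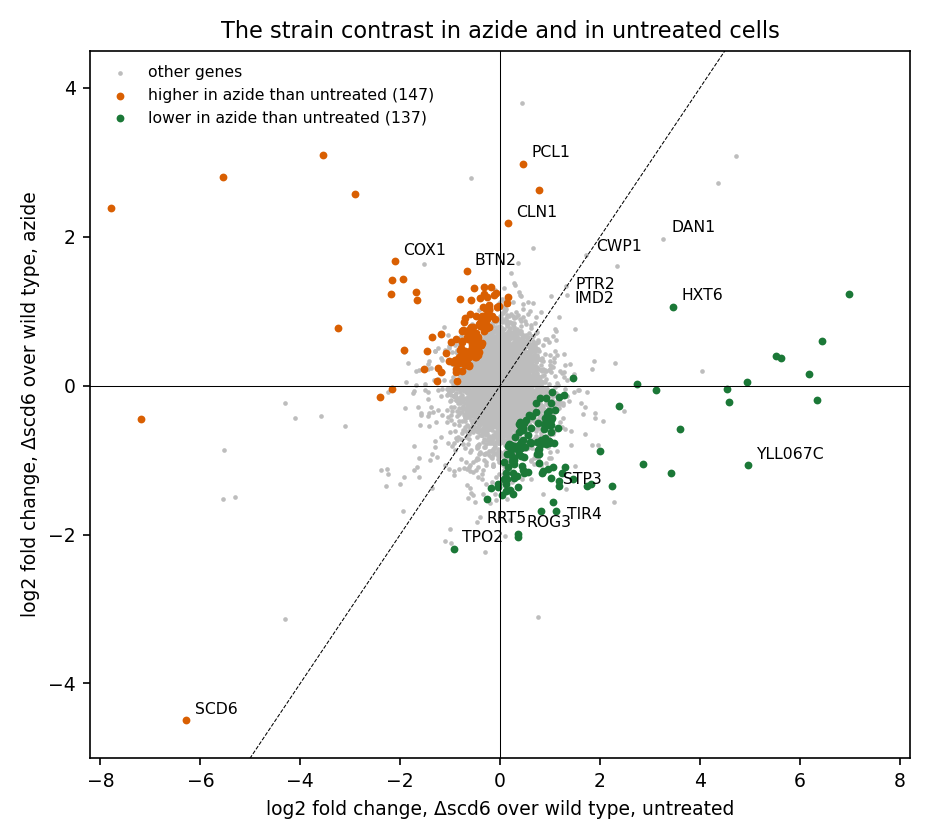
Log2 fold change of Δscd6 over wild type in azide (vertical) against untreated cells (horizontal), 1 point per gene, with the line of equal values dashed. Orange points are the 147 genes whose strain effect was higher in azide and green points the 137 where it was lower. PCL1, CLN1 and BTN2 lie above the line near 0 on the horizontal axis, and CWP1, IMD2 and PTR2 lie close to it.

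The change of each strain with azide, given side by side, gives the values on both sides; the strain comparisons and the responses share libraries, so no relation between them is computed. Of all genes 42.5% were called in the response of Δscd6 and 42% in that of wild type. With azide PCL1 changed by -1.39 on the log2 scale in Δscd6 and by -3.92 in wild type, CLN1 by -0.65 in Δscd6 and by -2.68 in wild type, and CLB2 by -1.40 in Δscd6 and by -3.04 in wild type, in the authors' deposited tables. PHO84 changed by -2.61 in Δscd6 and by -3.90 in wild type, and SPB1 by -1.31 in Δscd6 and by -3.15 in wild type, in the authors' deposited tables. These messages thus fell with azide in both strains, with larger negative values in wild type. BTN2 changed by 3.48 in Δscd6 and by 1.27 in wild type, GPH1 by 3.97 in Δscd6 and by 2.65 in wild type, and TSA2 by 2.88 in Δscd6 and by 1.38 in wild type, in the authors' deposited tables, so these were up in both strains with the larger value in Δscd6. Among the lower genes TPO2 changed by 4.52 in Δscd6 and by 5.79 in wild type, TDA6 by 4.28 in Δscd6 and by 5.65 in wild type, and ROG3 by 1.08 in Δscd6 and by 3.42 in wild type, in the authors' deposited tables. TIR4 had opposite signs, -1.62 in Δscd6 (adjusted p = 2.1e-06) and 1.19 in wild type (adjusted p = 4.8e-04), in the authors' deposited tables.

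The azide response of Δsbp1 cells rests on libraries that enter neither side of the comparison. In the authors' deposited table of that response 54.9% of all genes were called, 27.5% higher and 27.4% lower with azide, with a median of -0.02. Of the 145 genes lower in Δscd6 than in wild type under azide, 108 were higher with azide in Δsbp1 (74.5%) and 6 lower (4.14%), with a median of 1.33 and quartiles of 0.53 and 2.38. Of the 129 genes higher in Δscd6, 74 were lower with azide in Δsbp1 (57.4%) and 30 higher (23.3%), with a median of -0.78 and quartiles of -2.14 and 0.45. Most genes lower in Δscd6 were thus called as induced by azide in these other cells, and most genes higher in Δscd6 as repressed. Exceptions on the higher side, by the authors' deposited table of Δsbp1, included OLI1 at 4.39, GPH1 at 2.57, CTT1 at 3.60, PGM2 at 3.24, SSA4 at 2.26 and BTN2 at 1.95, all higher with azide. On the lower side AQR1 stood at -0.85 and TIR4 at -0.70 in the authors' deposited table of Δsbp1.

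**Figure D5:**
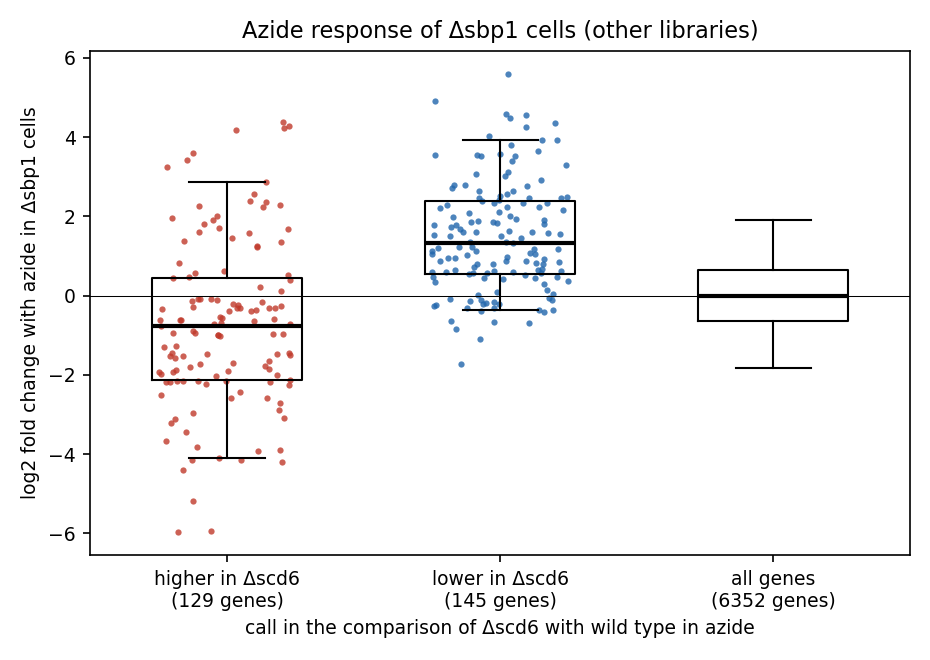
Log2 fold change with azide in Δsbp1 cells for the 129 genes called higher and the 145 called lower in Δscd6 than in wild type under azide, and for all 6352 genes. Boxes are quartiles with the median, whiskers run from the 5th to the 95th percentile, and points are single genes. The medians are -0.78 for the higher genes, 1.33 for the lower genes and -0.02 for all genes.

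For the leading genes the other deletion strain is given beside Δscd6; both comparisons use the same wild type azide libraries, so the values are not independent. Of all genes 21.2% were called for Δsbp1 against wild type in azide. In azide, relative to wild type, PCL1 stood at 2.98 in Δscd6 and -1.88 in Δsbp1, SPB1 at 1.31 in Δscd6 and -1.95 in Δsbp1, and PHO84 at 1.65 in Δscd6 and -1.61 in Δsbp1, in the authors' deposited tables, so these had opposite signs, each past the test. IMD2 stood at 1.34 in Δscd6 and -1.51 in Δsbp1, again of opposite sign, in the authors' deposited tables. In Δsbp1 CLN1 stood at -0.24, CLB2 at -0.55 and BTN2 at -0.48, none past the authors' test (adjusted p = 0.55, 0.12 and 0.23). CWP1 stood at 1.04 in Δsbp1 by the authors' deposited table (adjusted p = 4.0e-04), higher as in Δscd6. GPH1 stood at 1.25 in Δscd6 and 1.97 in Δsbp1, HXK1 at 1.23 in Δscd6 and 2.73 in Δsbp1, TMA10 at 1.36 in Δscd6 and 2.38 in Δsbp1, and TSA2 at 1.33 in Δscd6 and 1.21 in Δsbp1, all higher in both strains, in the authors' deposited tables. PRM7 stood at -2.11 in Δscd6 and -2.85 in Δsbp1, BSC1 at -1.93 in Δscd6 and -3.17 in Δsbp1, and TIR4 at -1.68 in Δscd6 and -2.05 in Δsbp1, lower in both, in the authors' deposited tables. TPO2 stood at -2.19 in Δscd6 and -0.50 in Δsbp1, and ROG3 at -1.99 in Δscd6 and -0.56 in Δsbp1, in the authors' deposited tables, of which the values in Δsbp1 did not pass (adjusted p = 0.18 and 0.16).

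The calls were spread over levels, lengths and chromosomes. With genes in 4 bins of equal size by mean normalised count, the called genes were 22 higher and 41 lower in the lowest bin and 46 higher and 45 lower in the highest. In 4 bins by gene length, from the R64 annotation, medians ran from -0.01 in the third to 0.11 in the shortest, and the shortest genes, of 78 to 728 bases, had 32 higher and 21 lower calls. Without azide the same medians ran from 0.17 in the shortest to -0.23 in the longest bin. Medians of the nuclear chromosomes lay between -0.09 for I and 0.07 for X. On chromosome I 1 of 87 genes was higher and 6 lower, and on XVI, which holds SCD6, 8 of 455 were higher and 16 lower.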

How the data were processed

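Total RNA was extracted with hot phenol and made into libraries with an NEBNext kit, per the labels' protocols. The submitters' processing notes list edgeR, featureCounts, Picard and STAR 2, with no role or setting for any. Build, annotation, strand setting and the treatment of multiply matching reads are not given there. Antisense or overlapping genes may therefore share reads.

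The authors deposited 7 tables of their own comparisons, and no value per library was used. Per the file headers they hold, for each gene, an adjusted p-value beside the raw one, a log2 fold change, the fold itself as a ratio, and a linear signal, the mean normalised count. The mean signal deposited by the authors is the same in all tables. Benjamini-Hochberg adjustment of the deposited p-value over 6352 genes returned the deposited adjusted one to within 2.1e-08. A count model on all libraries had been planned, with the authors' tests as the stated fallback, which was used.

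The standard error of a gene was taken as its absolute log2 value divided by the z score of its p, where the fold change was at least 0.02 in size; 287 genes had none in the azide comparison. Group means were solved from the folds and the mean count. Azide minus untreated effects, which share no library, were tested against a normal distribution over 5841 genes, and 12 called genes could not be tested. Both steps were run on simulated data built with normal errors of the implied size. Such data cannot show that the authors' p-values come from a test of that form. Gene IDs matched the R64 table of RefSeq for 5764 of 6352 genes, and this table gave names, lengths and the sequences of 600 bases before each start codon.

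Genes named are SCD6 and its neighbours, the 15 largest rises and 15 largest falls with an adjusted p under 0.05, a mean count of at least 100 and an annotation, outside repeats, the 8 largest differences either way, and called members of 60 gene lists. One named item is not reported here. The comparison, its lists and rules were chosen with earlier results of these data known. Alternatives were an adjusted p under 0.01, a log2 fold change of at least 1 in size, a mean count of at least 100 and other scalings. Tools were matplotlib 3.10.9, scipy 1.17.1, numpy 2.4.6 and pandas 2.3.3 under Python 3.11.15.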

Additional observations from a re-analysis of the deposited data

Results flagged for a closer look

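The strain effect of Δscd6 against wild type was not the same in azide as in untreated cells for 147 genes on the higher and 137 on the lower side, by a test of the difference itself. Among named genes the difference, azide minus untreated on the log2 scale, was 3.78 for COX1, 2.53 for PCL1, 2.21 for BTN2, 2.03 for PHR1, 2.03 for CLN1, 1.88 for FMP33, 1.84 for SPB1, 1.79 for SCD6, 1.65 for CLB2, 1.55 for HXK1, 1.51 for TSA2 and 1.32 for GPH1. It was -6.03 for YLL067C, -4.59 for YLL066C, -2.80 for TIR4, -2.62 for YOL085C, -2.49 for RRT5, -2.40 for HXT6, -2.34 for ROG3, -2.25 for STP3, -1.71 for PET18, -1.50 for BAG7, -1.27 for TPO2 and -1.25 for UGA2. With equal totals of the groups 23 of these 24 genes still differed, TPO2 being the exception.

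YLL067C and YLL066C, neighbours in name at the left end of chromosome XII, had reconstructed means of 7.72 and 18.7 normalised counts in Δscd6 and 16.2 and 42.1 in wild type under azide. Without azide they stood at 907 and 993 in Δscd6 and 29.3 and 92.7 in wild type. Their difference thus lies in the untreated Δscd6 libraries, and neither passed the test in azide. SCD6 stood at 35.9 in Δscd6 under azide and 13.6 in Δscd6 without it, low in both. COX1, of the mitochondrial genome, averaged 210.3 in Δscd6 and 66.1 in wild type under azide, and 59 in Δscd6 and 255 in wild type without it. PHR1, a DNA photolyase, and FMP33 did not pass in azide in the authors' deposited table (adjusted p = 0.072 and 0.14), where they stood at 0.66 and 0.69, against -1.37 and -1.19 without azide.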

How the results depend on the processing

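At an adjusted p under 0.01 the calls were 78 higher and 95 lower, and with a log2 fold change of at least 1 in size 49 higher and 78 lower, both by construction stricter. With a mean count of at least 100 they were 123 and 134, and with equal totals 116 and 167, of which 261 of the 274 calls were shared. Equal totals moved the azide comparison by 0.04 and the untreated one by 0.28 on the log2 scale; the genes whose strain effect was higher in azide then numbered 640 and those with a lower one 100. Filling missing standard errors gave 140 and 131, the larger of both variances 144 and 135, and a mean count of at least 100 gave 127 and 114. Equal totals in both conditions and filled standard errors were chosen after the data were seen. With filled errors RNR1, CYB5 and YFR006W also differed (adjusted p = 0.021, 0.046 and 0.045), while FAR1 did not (adjusted p = 0.067). All 39 named genes kept direction and call in 78 values under another scaling, and of the list counts 532 stayed within 1.5 times and 68 did not. No paired analysis was possible because the tables carry no values per library; leaving out a replicate, edgeR and DESeq2 were not run for that reason. Depth per library is unknown, and called genes with a mean under 100, 19 in all, rest on few reads.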

Other observations

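Some called genes outside the lists share a role, singled out after their values were seen. By the authors' deposited table genes of sphingolipid metabolism included SCS7, a fatty acid hydroxylase, at -0.92 (adjusted p = 0.0015), SUR2, which hydroxylates sphinganine, at -0.79 (adjusted p = 0.0026) and DPL1, the long chain base lyase, at -0.70 (adjusted p = 0.017), all lower, while TSC10, ketosphinganine reductase, was higher at 0.84 (adjusted p = 0.0051). The phospholipases PLB1 and PLB3 were lower at -0.97 and -0.73 in the authors' deposited table (adjusted p = 0.0047 and 0.021). SCS7 averaged 3072 normalised counts in Δscd6 and 5804 in wild type, and SUR2 3472 in Δscd6 and 6017 in wild type.

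MET6, the methionine synthase, was higher at 1.06 (adjusted p = 1.5e-04) in the authors' deposited table, with means of 2372 in Δscd6 and 1138 in wild type, as was MET14, of sulfate assimilation, at 0.65 (adjusted p = 0.031), while MET3, of the same pathway, was lower at -0.76 (adjusted p = 0.004). Of 14 meiosis and sporulation genes 12 lay below 0, and SPS100, of the spore wall, was lower at -0.93 in the authors' deposited table (adjusted p = 0.021), from a mean count of 114. ZPR1, a zinc finger chaperone of elongation factor 1A, was higher at 1.19 (adjusted p = 2.8e-05) and MBF1, a coactivator of Gcn4, at 0.80 (adjusted p = 0.033), in the authors' deposited table. NRD1, which ends transcription of short RNAs, was lower at -0.94 (adjusted p = 0.0018) in the authors' deposited table, with means of 761 in Δscd6 and 1456 in wild type.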
